A study of Mus musculus with 6 samples.

Results

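Motile cilia beat by sliding of the microtubule doublets of their core, the axoneme, and the genes described here encode parts of that machine together with Foxj1, the transcription factor that switches the motile cilium programme on. The set was taken from the authors' table of 466 genes as Foxj1 and every protein-coding gene whose name begins with Dnah, Dnai, Cfap, Rsph, Tekt, Spag or Drc or is Ccdc39, Ccdc40 or Ccdc114. It had 5 members, Foxj1, Rsph1, Cfap52, Cfap206 and Cfap44, out of 80 annotated mouse genes that meet the same rule in GENCODE M21. The other genes of these families, among them 15 Dnah and 5 Tekt genes, were not analysed here. Only genes that differed between the groups by the authors' own limits are in the table, and each has an unadjusted p of at most 0.0499 and at least a 2-fold change. A direction or a low p among the 5 genes is therefore a description of that selection and not independent evidence.

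Poly(A) RNA of microglia, the resident macrophages of the brain, was sequenced from brains of adult male 5×FAD mice of the C57BL/6N strain, which carry transgenes for familial Alzheimer's disease. The knockout group (Piezo1MGKO; FAD) held 3 samples from mice with Cx3cr1CreER-EYFP and floxed Piezo1, which encodes a cation channel opened by membrane stretch. The control group (Piezo1fl/fl; FAD) held 3 samples from floxed littermates, and no Cre allele was named for them, so Piezo1 loss and the Cre allele cannot be told apart. All mice had tamoxifen at 20 mg/kg on 4 days from 4.5 weeks of age. Cre is driven from Cx3cr1, which border macrophages and monocytes also express, and the number of mice behind each sample was not given. p-values therefore measure the spread between these samples, which the titles call biological repetitions, and the part of it between mice is unknown.

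Depth and the targeted gene limit what can be said. The deposited values are normalised read counts, and library depth is unknown, since the 49643 to 180760 reads per sample recovered in the table cover selected genes only. Piezo1 is not among the 466 genes, so its level gave no check of the genotypes. Of 18 microglia markers only Cx3cr1 is in the table, at 27900 to 35700 normalised reads in the knockouts and 58600 to 79400 in the controls. Cre in the knockout group is driven from this same gene, so the Cre allele and microglial content cannot be told apart in this difference. The other 17 microglia markers were not analysed here.

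In the brain, motile cilia are carried by ependymal cells, which line the ventricles and move cerebrospinal fluid, and choroid plexus epithelium also bears cilia. Foxj1 acts there with transcription factors of the RFX family, which bind an inverted repeat called the X-box in promoters of cilium genes. Radial spokes, to which Rsph1 belongs, reach from the doublets to the central pair of microtubules and relay signals to the dynein arms that drive the beat.

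The sequence just ahead of the gene start is shown for the 3 members that have an entry in the RefSeq promoter table (GRCm38.p6), Cfap44, Cfap52 and Cfap206. A link between these sequences and the reads per sample was not tested. Each line holds the 250 bases before the RefSeq start, which for Cfap52 and Cfap44 lies a few bases inside the gene span of the authors' table, and capitals mark matches to the motifs searched on both strands.
Cfap44: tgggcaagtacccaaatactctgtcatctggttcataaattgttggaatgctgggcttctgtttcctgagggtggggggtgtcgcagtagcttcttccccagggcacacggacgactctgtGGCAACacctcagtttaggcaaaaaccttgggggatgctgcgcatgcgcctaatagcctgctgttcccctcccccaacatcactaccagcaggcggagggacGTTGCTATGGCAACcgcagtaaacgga
Cfap52: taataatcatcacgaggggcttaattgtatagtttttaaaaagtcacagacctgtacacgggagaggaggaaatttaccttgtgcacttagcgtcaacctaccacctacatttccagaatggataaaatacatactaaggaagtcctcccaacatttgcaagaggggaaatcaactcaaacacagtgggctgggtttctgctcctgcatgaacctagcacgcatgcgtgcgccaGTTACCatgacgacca
Cfap206: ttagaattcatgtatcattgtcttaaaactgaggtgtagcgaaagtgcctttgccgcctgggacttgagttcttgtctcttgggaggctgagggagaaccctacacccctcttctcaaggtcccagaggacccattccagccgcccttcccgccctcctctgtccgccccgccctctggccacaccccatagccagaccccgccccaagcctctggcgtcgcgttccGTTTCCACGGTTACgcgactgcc
The Cfap44 window is chr16:44394549-44394798 on the plus strand, the Cfap52 window chr11:67965643-67965892 on the minus strand and the Cfap206 window chr4:34730207-34730456 on the minus strand. An X-box with both arms, written as GTNNCC, any 3 bases and GNNAC, was found in Cfap44 at 27 to 14 bases before the start, on the minus strand of the printed sequence, and in Cfap206 at 23 to 10 bases before it. It was present in 3.81% of 32851 windows of the same length. Cfap52 held a single X-box arm, GTTACC, at 16 to 11 bases before its start, and that arm was present in 6.06% of the windows. The other arm searched, GTTGCC, was found in Cfap44 only among the 3, once inside the X-box and once at 129 to 124 bases, and in 10.4% of the windows. The forkhead cores TGTTTAC and TGTTTGT, in 3.17% and 5.84% of the windows, were not in these 3 windows. The motifs were chosen with the sequences in view, and a match is a description of letters, not a binding site.

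Foxj1 (ENSMUSG00000034227, chromosome 11, 116330704 to 116335399, minus strand, GRCm38) had the highest control mean of the 5 genes per length. Controls 1, 2 and 3 held 36.3, 83.4 and 2.94 normalised reads. Knockouts 1, 2 and 3 held 19.7, 10.2 and 7.08. Control 2 stood far above every other sample, control 1 came next, and control 3 was the lowest of all 6, below each knockout, so the groups overlapped. The knockout mean was 12.3 ± 6.55 and the control mean 40.9 ± 40.4 (SD, n = 3 each). The limma log2 fold change, on the log2(value + 1) scale, was -0.91 (SE 1.09, limma adjusted p = 0.429). The authors' deposited table gives -1.73 with an unadjusted p of 0.0462, close to their limit of 0.05, and an adjusted p of 1. Without control 2 the limma value was 0.02 (limma adjusted p = 0.983), and without control 3 it was -2.19 (limma adjusted p = 0.09). For this gene and the others below, fewer cells of a type and less RNA per cell cannot be told apart in bulk RNA.

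Rsph1 (ENSMUSG00000024033, chromosome 17, 31255019 to 31277356, minus strand) encodes a protein of the radial spoke head, and its human gene is mutated in primary ciliary dyskinesia. Controls 1, 2 and 3 held 8.83, 24.2 and 2.94 normalised reads. Knockouts 1, 2 and 3 held 2.95, 1.02 and 0. Knockout 1 and control 3 were level at 3 reads each, and the other knockouts lay below every control. The group means were 1.32 ± 1.5 and 12 ± 11 (SD, n = 3 each), and the limma log2 fold change was -2.31 (SE 0.93, limma adjusted p = 0.076). An antisense gene overlaps Rsph1, and the sources used here do not give whether reads were counted by strand, so its reads are uncertain.

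Cfap52 (ENSMUSG00000020904, chromosome 11, 67924806 to 67965651, minus strand) encodes a WD-repeat protein that lies inside the doublet microtubules. Controls 1, 2 and 3 held 2.94, 20.4 and 1.96 normalised reads, and a single read in knockout 1 (0.983 normalised reads) was the only one in the knockout group. Every control therefore exceeded every knockout, but outside control 2 the gap was 1 or 2 reads. The means were 0.328 ± 0.568 and 8.42 ± 10.4 (SD, n = 3 each), with a limma log2 fold change of -2.32 (SE 0.90, limma adjusted p = 0.0732). A noncoding transcript on the other strand overlaps Cfap52, so its reads are uncertain too.

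Cfap206 (ENSMUSG00000028294, chromosome 4, 34688559 to 34730206, minus strand) encodes a protein that, in Tetrahymena, anchors a radial spoke and a dynein to the doublet. Controls 1, 2 and 3 had 3.92, 12.6 and 2.94 normalised reads, and the knockout group again had a single read, in knockout 1 (0.983 normalised reads). The groups did not overlap, and the controls were the least uneven of the 5 genes. The means were 0.328 ± 0.568 and 6.49 ± 5.32 (SD, n = 3 each), and the limma log2 fold change was -2.35 (SE 0.78), with the lowest limma adjusted p among the members, 0.0578.

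Cfap44 (ENSMUSG00000071550, chromosome 16, 44394796 to 44482428, plus strand) encodes a protein that, in Tetrahymena, tethers an inner dynein, and its human gene is mutated in men with malformed sperm flagella. It had no reads in any knockout and none in control 1, with 19.4 normalised reads in control 2 and 2.94 in control 3. The control mean was 7.44 ± 10.5 (SD, n = 3), at least 2.47-fold higher than in the knockout, against a floor of 3 reads in each knockout library. The remaining control mean of 1.47 without control 2 lies under that floor, so no fold can be given without that sample. The limma log2 fold change was -2.11 (SE 1.02, limma adjusted p = 0.109).

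**Figure D1:**
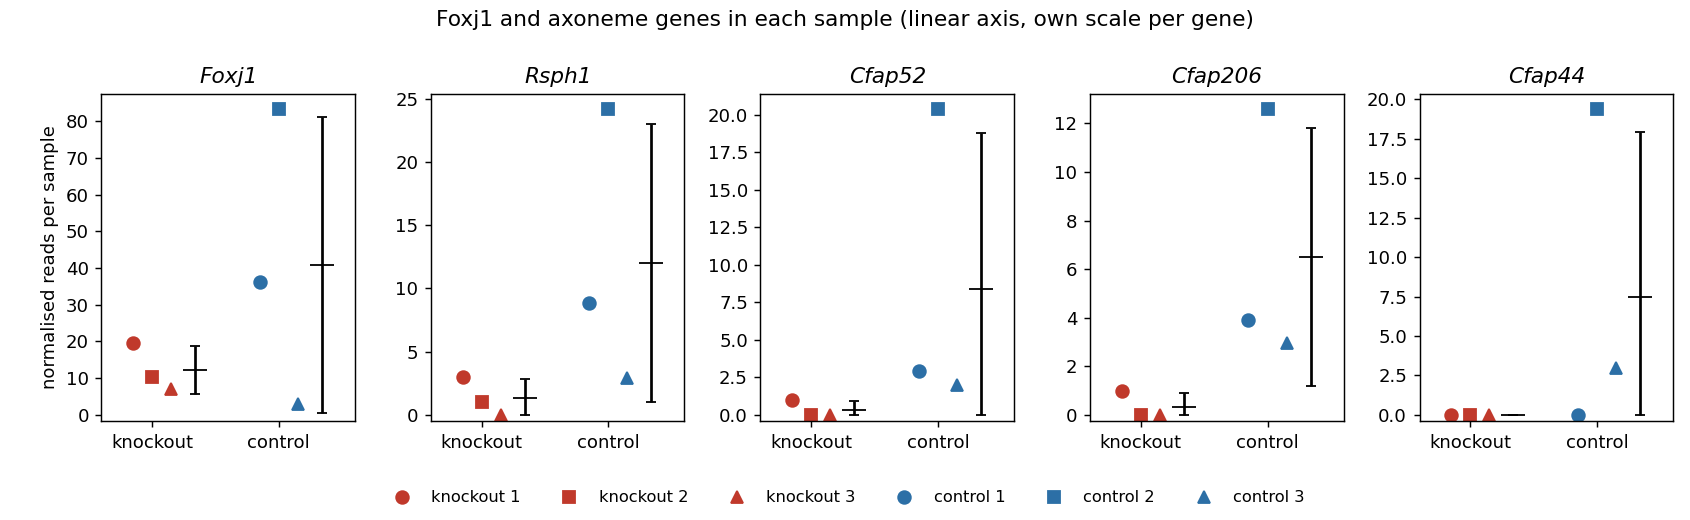
Normalised reads of Foxj1, Rsph1, Cfap52, Cfap206 and Cfap44 in each of the 3 knockout and 3 control samples, on a linear axis with its own scale per gene. Black dashes and bars are the group mean and SD, with the lower bar stopped at 0, and control 2 is the highest sample in all 5 panels.

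By the limma fit, 0 of the 5 genes passed an adjusted p of 0.05, and 0% of all 466 listed genes passed it as lower. At an unadjusted p under 0.05, limma had 3 of the 5 (Cfap206, Cfap52 and Rsph1) against 46.4% of the listed genes. edgeR on the recovered whole reads also called 0 of the 5 (0% of the listed genes were called lower), with 4 of the 5 and 50.2% at an unadjusted p under 0.05. DESeq2 on the same reads called 0 of the 5 against 12.7% of the listed genes, with 3 of the 5 and 46.1% at an unadjusted p under 0.05. DESeq2 gave an adjusted p for Foxj1 (0.131) and none for the other 4. In the authors' deposited table all 5 had an adjusted p of 1, whereas 3.00% of the listed genes passed 0.05 as lower. The groups did not overlap for 2 of the 5 genes, Cfap52 and Cfap206, against 45.3% of the listed genes. With 0% of the listed genes called lower by limma and edgeR, and a DESeq2 adjusted p for Foxj1 alone, those calls allow no comparison. The 5 genes are also too few to set against the 3.00% of the authors. Non-overlapping groups were no more frequent among the 5 genes than among the listed genes.

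Exact two-sided permutation tests on log2(value + 1) gave 0.1 for Cfap52 and Cfap206, the smallest p that 3 against 3 samples allow. The same exact test gave 0.2 for Rsph1, 0.4 for Cfap44 and 0.6 for Foxj1. For the 5 genes the median of the limma log2 fold changes was -2.31, against -1.99 for all listed genes, of which 88.0% were listed as lower. It was also -2.31 with Cfap44 set at its bound. All 5 values were below 0 in the limma fit, and Foxj1 turned to 0.50 after rescaling samples by the listed genes' median ratio, which raised the median of all listed genes by 1.03.

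The counts behind these values were small. Over the 3 knockouts there was 1 read of Cfap52 and 1 of Cfap206, 4 of Rsph1, 0 of Cfap44 and 37 of Foxj1. Over the 3 controls there were 26, 20, 37, 23 and 126 reads of the same genes. Scaled by the size factors of the libraries, the control to knockout ratio of reads per library was 25.3 for Cfap52, with an exact 95% counting interval of 4.15 to 1040. It was 19.4 for Cfap206 (3.11 to 805), 8.99 for Rsph1 (3.23 to 34.7) and 3.31 for Foxj1 (2.28 to 4.91). These intervals cover counting error only, not the differences between samples of a group.

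Control 2 held most of the reads. Its value was the highest of the 6 for all 5 genes, against 37.1% of the listed genes, and it carried from 52.3% of the normalised reads of Foxj1 to 86.9% of those of Cfap44. Without control 2 the same ratio of reads per library, now of 2 controls to 3 knockouts, was 10.2 for Cfap206 (exact counting interval 1.32 to 461) and 4.39 for Rsph1 (1.33 to 18.7). It was 7.31 for Cfap52, with an interval of 0.818 to 346 that includes 1, and 1.58 for Foxj1 (0.985 to 2.54). Cfap44, with 3 reads in the remaining controls and 0 in the knockouts, had no ratio. The lower limit of its interval was 0.604, also under 1. The limma log2 fold change stayed below 0 for 4 of the 5 genes without control 2, against 86.5% of the listed genes.

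Among the 5 genes the balance between Foxj1 and the axoneme genes also varied between samples. Foxj1 made up 20 of 25 member reads in knockout 1 (80.0%, exact 95% binomial interval 59.3% to 93.2%). It made up 10 of 11 reads in knockout 2 (90.9%, 58.7% to 99.8%) and all 7 in knockout 3 (100%, 59.0% to 100%). In the controls the share was 69.8% of 53 reads in control 1 (55.7% to 81.7%), 52.1% of 165 in control 2 (44.2% to 59.9%) and 21.4% of 14 in control 3 (4.66% to 50.8%). The 3 knockout shares lay above the 3 control shares, and the intervals cover counting error only. The 4 axoneme genes were thus at 4.92, 1.02 and 0 summed normalised reads in knockouts 1, 2 and 3, and at 15.7, 76.6 and 10.8 in controls 1, 2 and 3. No test was run on this share, because the genes had been selected on the same samples. The authors' log2 fold change was -1.73 for Foxj1 and -3.17 to -5.33 for the axoneme genes. The higher share in the knockouts restates that difference and is no separate result.

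**Figure D2:**
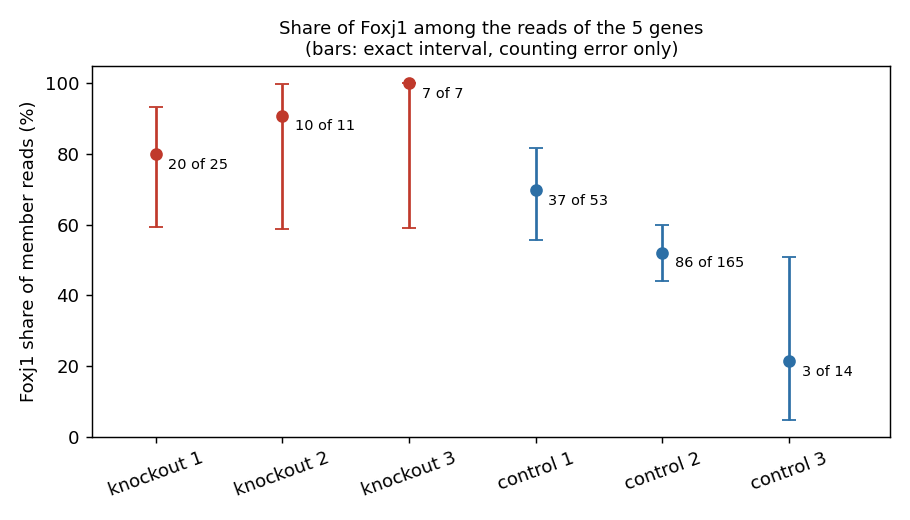
Share of Foxj1 among all reads of the 5 genes in each sample, in percent, with the reads behind it and its exact 95% interval for counting error. The share is 80.0% or more in the knockouts and runs from 21.4% to 69.8% in the controls.

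Levels per kilobase of gene length placed the genes in the order Foxj1, Rsph1, Cfap52, Cfap206 and Cfap44 in the control mean. The values were 15.6, 10.3, 3.63, 2.61 and 0.886 normalised reads per kilobase. Neighbours in this order differed by less than the spread between controls. Among the controls this order held in control 2 alone. In control 1 Cfap206 stood above Cfap52, at 1.58 against 1.27 normalised reads per kilobase, and control 3 had Rsph1 at 2.52 normalised reads per kilobase, Cfap206 at 1.18 and Foxj1 at 1.12. In the knockout mean Foxj1 stood at 4.70 and Rsph1 at 1.14 normalised reads per kilobase, and Cfap52 and Cfap206 at 0.141 and 0.132.

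Other genes of the motile cilium were looked up in 4 lists chosen by function, with 136 genes annotated under the listed names. Of these, 4 were in the authors' table, all as lower (88.0% of all listed genes were), and all came from the list of axoneme proteins. None of the genes for ciliary transcription factors, dynein assembly and docking, or intraflagellar transport was in the table, and those were not analysed here. Efcab1, a gene of a calcium-binding protein of the outer dynein arm, stood at 3.92, 39.8 and 1.96 normalised reads across controls 1, 2 and 3. It had 3.06 normalised reads in knockout 2 and none in the other knockouts, so knockout 2 lay above control 3. Ak7, an adenylate kinase of motile cilia, stood at 1.96, 24.2 and 4.89 normalised reads across controls 1, 2 and 3. Knockouts 1, 2 and 3 had 2.95, 0 and 1.01, and control 1 lay below knockout 1. Vwa3a stood at 3.92, 21.3 and 1.96 normalised reads across controls 1, 2 and 3, with 1.97 in knockout 1 and none in the other knockouts.

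Ccdc65, a subunit gene of the nexin-dynein regulatory complex, had the smallest share in control 2 among these 4 genes. Controls 1, 2 and 3 held 1.96, 9.70 and 5.87 normalised reads, with none in any knockout, and control 2 held 55.3% of its reads. Its control mean of 5.84 ± 3.87 (SD, n = 3) was at least 1.94-fold higher than in the knockout, against the same floor of 3 reads in each library. The limma fit called 0 of these 4 genes, and 0% of all listed genes as lower. At an unadjusted p under 0.05 it had 2 of the 4, against 46.4% of the listed genes. Their median limma log2 fold change was -2.33, against -1.99 for all listed genes. Summed, the 4 genes stood at 4.92, 3.06 and 1.01 normalised reads in knockouts 1, 2 and 3 and at 11.8, 95.0 and 14.7 in controls 1, 2 and 3.

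Markers of ciliated and other cell types were in the table beside the axoneme genes. Of 21 annotated choroid plexus markers, 10 were listed, all lower and all highest in control 2. Among all listed genes 88.0% were lower and 37.1% were highest in control 2. The summed level of the 10 markers ran from 600 to 2090 normalised reads in the knockouts and from 427 to 19800 in the controls. Ttr, the gene of the thyroxine carrier transthyretin, stood at 3369, 18571 and 265 normalised reads across controls 1, 2 and 3, and knockouts 1, 2 and 3 held 1955, 847 and 563. The order of the 6 samples by Ttr was the same as by Foxj1, with control 2 highest and control 3 lowest. The part of these markers in the cilium gene values was not tested.

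The ependymal list without the members had 3 of 16 genes in the table, Calml4, Tm4sf1 and Acta2. Calml4, a calmodulin-like gene, was highest in control 2, at 94.1 normalised reads, whereas Tm4sf1 and Acta2 were highest in control 3. The summed level of the 3 genes ran from 13.3 to 33.4 normalised reads in the knockouts and from 36.3 to 217 in the controls. Acta2, at 189 normalised reads in control 3, made up most of the highest sum and is also in the mural and fibroblast list below. Of 25 neuron markers 10 were listed, and 8 of these were highest in control 3 and not in control 2. Their summed level ran from 19.2 to 104 normalised reads in the knockouts and from 108 to 892 in the controls. Of the mural and fibroblast list 6 of 18 genes were listed, with 4 highest in control 3. Their summed level was 48.6 to 94.4 normalised reads in the knockouts and 146 to 595 in the controls. Igfbp2, at 364 normalised reads in control 2, counts in this sum and in that of the choroid plexus markers. Of the astrocyte list 2 of 12 were listed, at 3.04 to 16.3 against 9.81 to 59.2 normalised reads. The part of these markers in the cilium gene values was likewise not tested.

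The genes with the distribution over the 6 samples nearest to the members were found by comparing share profiles. Each gene's value in a sample was divided by its sum over samples, and the distance is the share that would have to be moved to turn one profile into the other. Over 319 other protein-coding genes with a mean of at least 5 normalised reads, the median distance from the members' mean profile was 0.453. That limit on the mean left out the axoneme genes Vwa3a and Ccdc65, and Cfap52, Cfap206 and Cfap44 also lie under it. Vwa3a had 73.1% of its normalised reads in control 2, against 67.8% in the members' mean profile. The ranking below therefore does not show that no axoneme gene is as near. Atp2b3, a plasma membrane calcium pump gene, was nearest at 0.062, and controls 1, 2 and 3 held 48.1, 206 and 7.83 normalised reads of it against 17.7, 13.3 and 4.05 for the knockouts. Vldlr, a lipoprotein receptor gene, was as near at 0.062. Steap1 (0.064), the heparan sulfatase gene Sulf1 (0.066) and the collagen gene Col8a2 (0.067) followed. The members themselves lay at 0.095 (Rsph1), 0.097 (Cfap206), 0.098 (Cfap52), 0.225 (Foxj1) and 0.234 (Cfap44), and Ttr at 0.097.

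**Figure D3:**
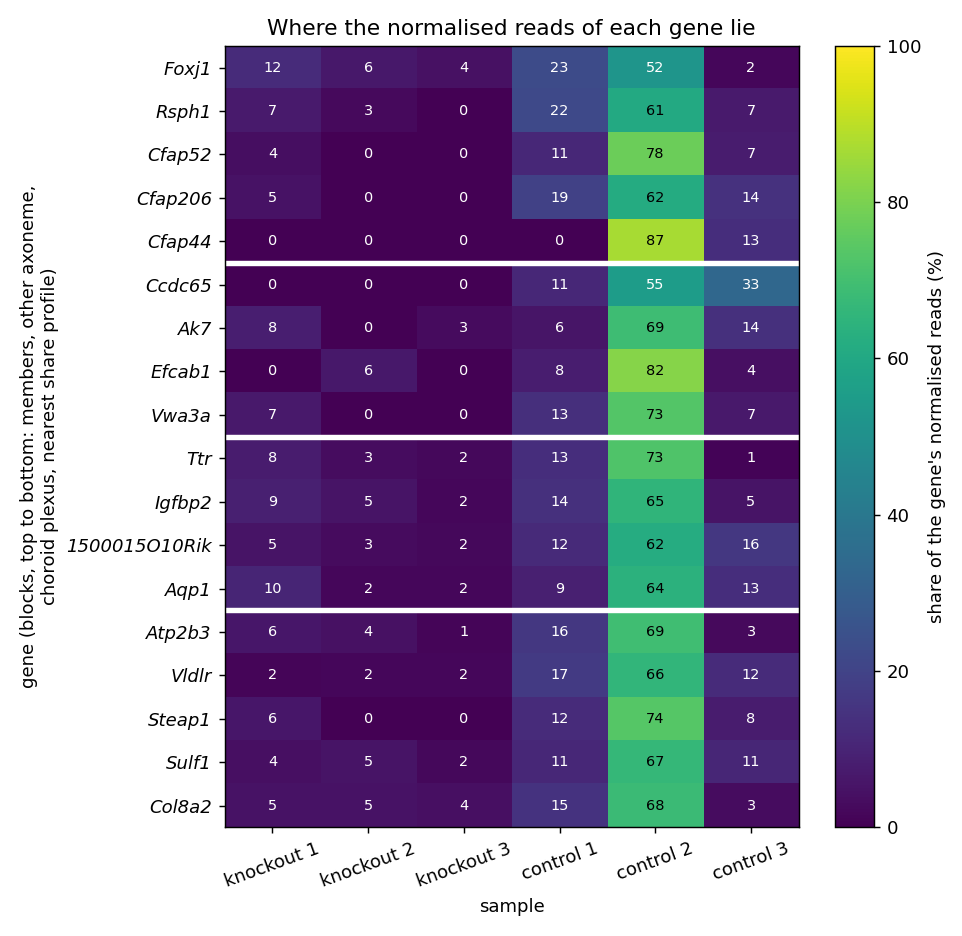
Share of each gene's normalised reads that lies in each sample, in percent, for the 5 members, the 4 other axoneme genes, the 4 choroid plexus markers with the highest mean and the 5 genes with the nearest share profile. The last 5 were taken among genes with a mean of at least 5 normalised reads. Control 2 holds the largest share in every gene shown, from 52.3% for Foxj1 upward.

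Leaving out or changing single choices moved the values of the 5 genes as the plot of settings shows. Without control 1 the limma fit called 2 of them, Cfap44 at -3.16 (limma adjusted p = 0.0376) and Cfap206 at -2.54 (limma adjusted p = 0.0462), and it called 196 of the 466 listed genes. The adjustment ran over genes the authors had already selected on these samples and does not account for that selection. These calls are therefore a description and no evidence of a difference.

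**Figure D4:**
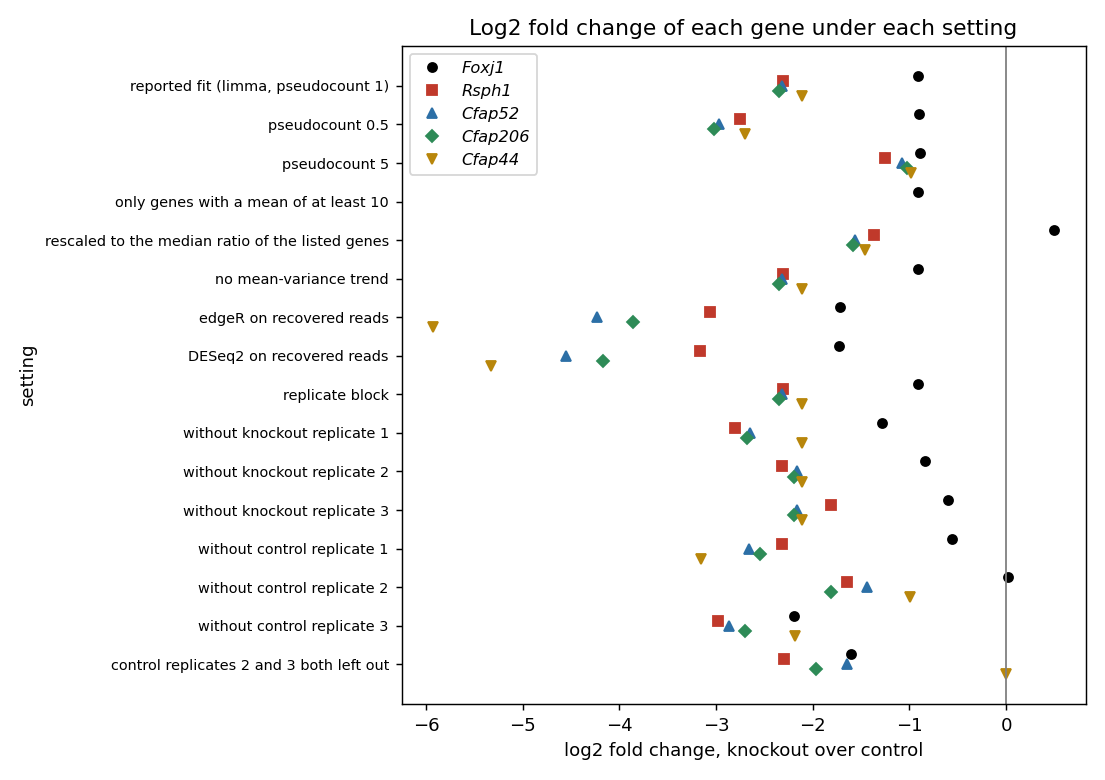
Log2 fold change (knockout over control) of each of the 5 genes in the reported fit and under each alternative. The axoneme genes lie below 0 except Cfap44 without controls 2 and 3, at 0, and Foxj1 crosses to 0.50 after the rescaling and to 0.02 without control 2.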

How the data were processed

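Poly(A) RNA of isolated microglia was sequenced in paired 150-base reads (per the labels' protocols) in 3 knockout and 3 control samples, grouped by title. The submitters' processing notes name R 3.6.1, DESeq2, RSEM 1.2.30, HISAT2, cutadapt 1.11 and the build GRCm38, without giving their order. The deposited normalised read count (a signal value), log2 fold change, p-value and adjusted p-value were computed by the authors, and all 466 rows are their selection from 19107 genes, the number computed from the top row. Every value was a whole number of reads divided by a size factor (100% of values whole at a tolerance of 1e-06; size factors 0.979 to 1.03). On these reads edgeR called 0 of the 466 genes and DESeq2 61.

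All 466 genes were fitted with limma 3.58.1 (R 4.3.3) on log2(value + 1) with trended variance, no rescaling and no filter and Benjamini-Hochberg adjustment over the 466, at a threshold of 0.05. Fold changes on this scale understate the change of low genes. The 466 had been selected on these same samples from 19107 genes. Adjusted p-values of limma, edgeR and DESeq2 over the 466 do not account for that selection and are a description. edgeR 4.0.16 (quasi-likelihood) and DESeq2 1.42.0 on the recovered reads, another pseudocount, a filter, a rescaling, a replicate block and left-out samples were the alternatives. The fits were tested on simulated independent genes, without the authors' selection or shifts shared by many genes of a sample. That test therefore does not cover these features of the data. Every member was named, with values per sample. The members, gene lists and motifs were chosen with earlier results of these data known. Coordinates are those of the authors' table (GRCm38). GENCODE M21 gives the same starts, and the same ends except for Rsph1. Intervals on reads and shares are exact (Clopper-Pearson) and cover counting error only.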

Additional observations from a re-analysis of the deposited data

How the results depend on the processing

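Over all 466 listed genes the limma fit called 0, and the count became 120 with a pseudocount of 0.5, 56 after rescaling samples by the listed genes' median ratio, 61 with DESeq2, 1 among the 236 genes with a mean of at least 10, 4 with the replicate number as a block and 54 without controls 2 and 3. Leaving out 1 sample at a time gave 0 to 196, with 196 without control 1 and 36 without control 3. Of the 5 members, 0 were called in the reported fit, 1 (Cfap206) with a pseudocount of 0.5, and 0 to 2 with 1 sample left out. The groups did not overlap for 2 of the 5, for 1 after the rescaling, for 0 with the filter on the mean, which keeps Foxj1 alone, for 4 without controls 2 and 3, and for 2 to 4 with 1 sample left out.

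The median log2 fold change of the members was -1.02 with a pseudocount of 5, -0.91 with the filter, -3.86 with edgeR, -4.17 with DESeq2 and -2.70 to -1.44 with 1 sample left out. Of 71 member values under the alternatives 68 were below 0. The exceptions were Foxj1 at 0.50 after the rescaling and 0.02 without control 2 (its range with 1 sample left out was -2.19 to 0.02), and Cfap44 at 0 without controls 2 and 3, where it has no reads in any remaining sample. In that last setting the lone control is assumed to vary like the other samples. The cause of these differences was not tested.

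The replicate numbers were not taken as a pairing. Deviations from the group means correlated at -0.04, -0.04 and 0.07 between samples numbered 1, 2 and 3, as a description over the listed genes, and the replicate block changed the call of none of the 5 members. Depth limits the axoneme genes most, with 0 to 4 reads each over the 3 knockouts.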
